A study of Mus musculus with 121 samples.

Results

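Mpo, Elane, Prtn3, Ctsg, Ms4a3, Ctsc, Srgn and Serpinb1a, 8 of the 23946 genes in the expression table, encode proteases and a peroxidase of neutrophil primary granules and the proteins that activate, store, inhibit or accompany them. They were chosen by name, and all 8 were found in the table. Their levels are described in single bone marrow cells across the 12 cell states that the authors assigned to these cells, and across the runs that the labels name. The cells fall into 2 sorted populations, 46 cells of CD11b+ GMP-P and 75 cells of GMP. Every cell came from C57BL/6 mice with the genotype Gfi1-R412X/-, which the labels also write as HTZ, so that both populations carry the R412X allele of Gfi1. Cells without that allele were not analysed here, and no value below measures an effect of the mutation. The labels name no animal, age or sex. Marrow had been enriched for CD117 (Kit) before the sort, and each cell was captured and lysed on a microfluidic chip. By run name the GMP cells divide into 13 cells whose prefix gives a late July day (10 without and 3 with a year), called late July GMP here, and 62 cells of another run, called other GMP. The prefix of the CD11b+ GMP-P cells can be read as the same late July day. Population and run therefore cannot be told apart when CD11b+ GMP-P is set against other GMP, and each population counts as 1 sample, so the differences below are descriptions with no test.

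Primary (azurophil) granules are the first granules that a developing neutrophil makes, and their contents are transcribed mainly in promyelocytes and shut off as the cell turns to secondary granule proteins such as lactoferrin. Myeloperoxidase, encoded by Mpo, uses hydrogen peroxide to make hypochlorous acid. Elane, Prtn3 and Ctsg encode neutrophil elastase, proteinase 3 and cathepsin G, serine proteases that are stored in active form. Cathepsin C, encoded by Ctsc, activates these proteases by removing an N-terminal dipeptide, and serglycin, the proteoglycan core protein encoded by Srgn, holds them in the granule. Serpinb1a encodes a cytoplasmic inhibitor of elastase, proteinase 3 and cathepsin G, and Ms4a3 a membrane-spanning protein found in granulocyte and monocyte progenitors. GFI1 is a transcriptional repressor needed for neutrophil formation, and mutations of human GFI1 or ELANE cause severe congenital neutropenia. Monocyte progenitors also transcribe several of these genes.

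The sequences just before the transcription start of the 4 core members are shown because these 4 genes varied together over cells, as described further on. The median Pearson r of their pairs was 0.810 over all cells. With the mean of each state within each run taken off it was 0.296. Any link between the sequences and this co-variation was not tested. Each is the last 150 bases before the start in RefSeq on the GRCm38.p6 build, which is not the mm9 build of the authors' processing, written 5′ to 3′ on the gene's own strand. Motifs of the factors C/EBP, RUNX and GFI1 were also searched but are not marked. Capitals mark 3 other motifs searched on both strands. One is GGAAG, a core bound by ETS factors, which reads CTTCC where it lies on the opposite strand. Another is AACGG, a core bound by MYB factors, and the last is TATAA, the TATA element.
Elane, chr10:79886162-79886311, plus strand: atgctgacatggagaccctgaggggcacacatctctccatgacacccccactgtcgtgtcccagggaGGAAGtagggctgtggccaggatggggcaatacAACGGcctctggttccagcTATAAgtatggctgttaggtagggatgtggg
Prtn3, chr10:79879517-79879666, plus strand: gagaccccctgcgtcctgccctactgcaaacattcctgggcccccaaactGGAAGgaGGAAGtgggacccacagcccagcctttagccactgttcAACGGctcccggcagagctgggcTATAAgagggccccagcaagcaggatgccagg
Mpo, chr11:87793634-87793783, plus strand: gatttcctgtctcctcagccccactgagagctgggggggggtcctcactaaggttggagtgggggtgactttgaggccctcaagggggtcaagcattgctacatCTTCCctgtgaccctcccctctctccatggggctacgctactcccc
Ctsg, chr14:56102575-56102724, minus strand: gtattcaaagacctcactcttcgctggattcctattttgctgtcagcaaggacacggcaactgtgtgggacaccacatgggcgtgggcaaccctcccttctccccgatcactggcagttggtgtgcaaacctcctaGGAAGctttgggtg

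The windows of Elane and Prtn3, which are adjacent genes on chromosome 10, hold the same 3 motifs in the same order. In Elane the ETS core begins 83, the MYB core 50 and the TATA element 31 bases before the start. In Prtn3 the ETS core begins at 100 and again at 93, the MYB core at 55 and the TATA element at 32. The Mpo window holds 1 match, an ETS core on the opposite strand at 46, and the Ctsg window an ETS core at 14. The Ctsg window also holds the unmarked RUNX motif, TGTGGT, on the opposite strand at 79, as do 8.28% of all windows on either strand. The C/EBP motif (22.7% of all windows) and the GFI1 core, AATCNC (18.5%), are in none of the windows shown. Of 32475 distinct RefSeq windows of this length, 47.6% hold the ETS core on either strand, 9.30% the MYB core and 14.2% the TATA element, and 122 (0.376%) hold all 3. That joint share was taken only for the motifs that the Elane and Prtn3 windows hold. It therefore does not measure how unusual the combination is. No motif overlaps another in the windows shown. A match is a description of the letters, not of a bound site, and the absence of one says only that the letters are not in this window. Of the other genes directly beside the core that the table holds under their RefSeq symbols, Cfd, next to Elane, was detected in 2 cells of both populations together, Lpo, next to Mpo, in 3, Mcpt8, on one side of Ctsg, in 31, and Gzme, on the other, in 0. Genes one place further out were detected in up to 87 cells (Supt4a, near Mpo).

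All levels are log2(TPM + 1), where TPM is a share of a cell's transcripts corrected for gene length, so that levels can be set side by side between genes. Detection means a TPM of at least 1 in that cell. The number of genes detected differed between runs, with medians of 2870 in CD11b+ GMP-P (967 to 4738), 2570 in late July GMP (1436 to 3824) and 4521 in other GMP (1951 to 6153). Itgam, which encodes CD11b, averaged 4.89 in CD11b+ GMP-P against 0.37 in other GMP, and Cd34, a progenitor marker, 1.77 against 7.04. Sequencing depth per cell is unknown because TPM does not keep it, so a 0 can be a missed transcript.

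Mpo and Elane were detected in every cell and Prtn3 in all but 2. Their levels were high and narrow in MP, cMoP, Mono, Gran-1 and Gran-2, state names that are used as deposited, and wide and lower in the Myelo states. Ctsg and Ms4a3 followed the same order of states, Srgn was also high in the earliest cells, and Serpinb1a stayed high in Myelo-2 and most Myelo-4 cells, where the others were low. Ctsc had the lowest mean, or shared a value of 0, in each of the 12 states. The states were named by the authors on these same cells, so differences between states describe the annotation.

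**Figure D1:**
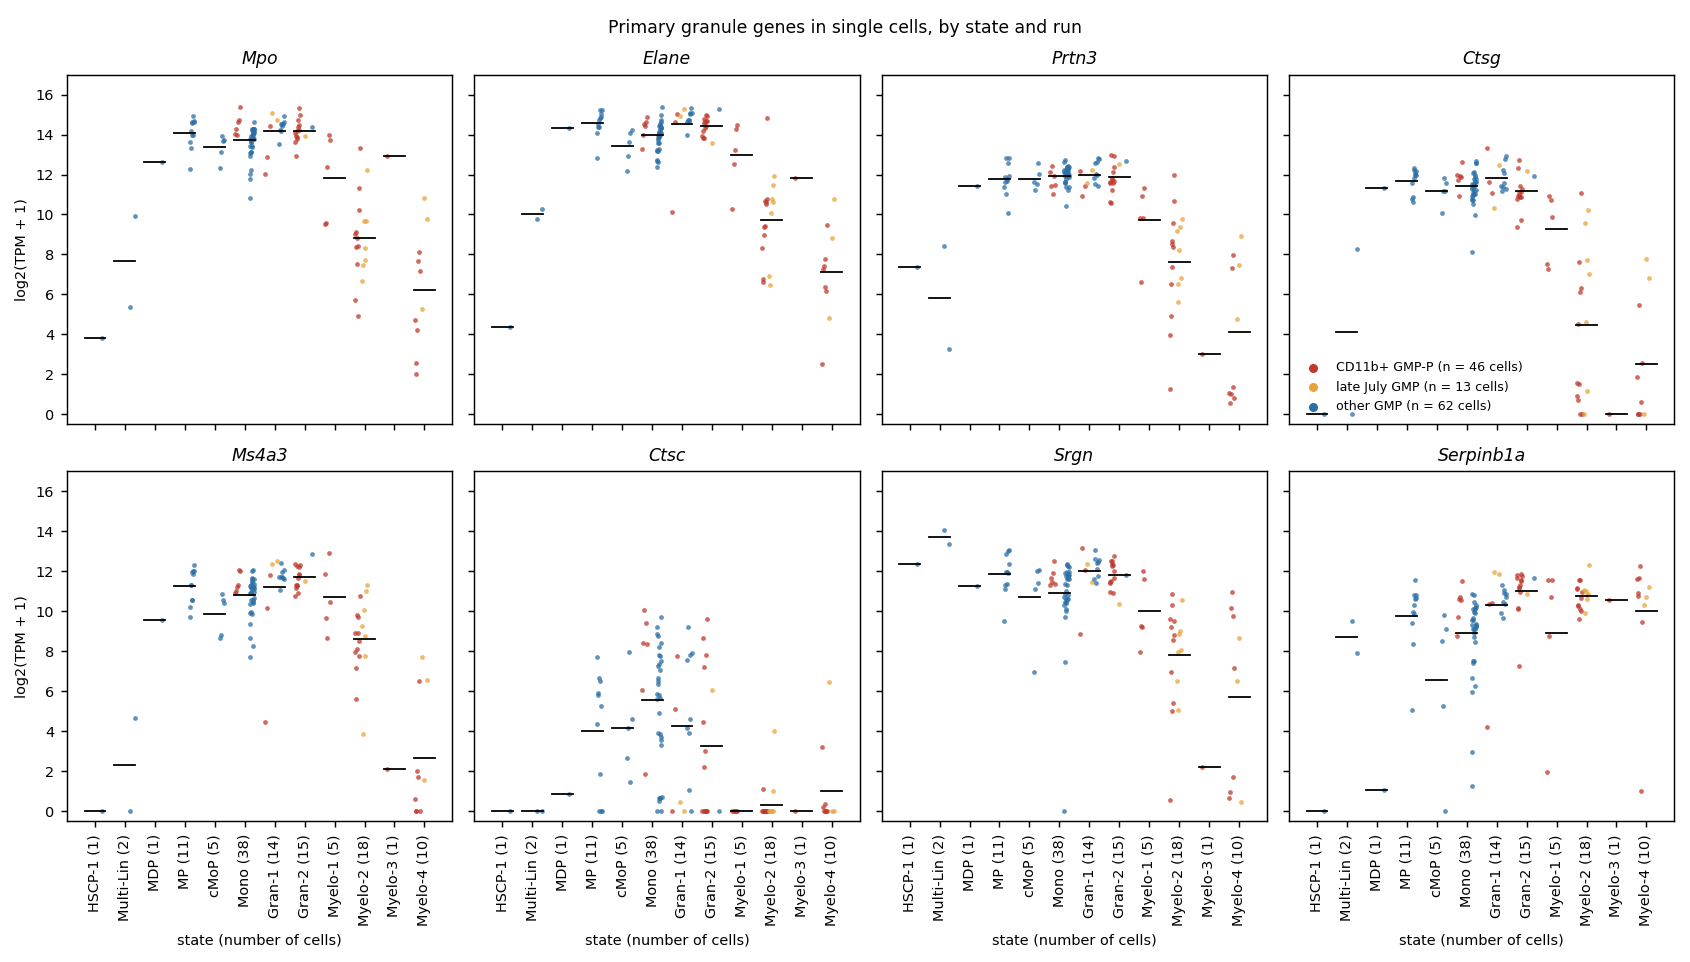
Level of each member in every cell, as log2(TPM + 1) on the vertical axis, by state on the horizontal axis with the number of cells in parentheses. Points are cells coloured by run and bars are state means over all runs. Mpo, Elane, Prtn3, Ctsg and Ms4a3 sit high from MP to Gran-2 and low in Myelo-4, whereas Serpinb1a stays near 10 in Myelo-2 and Myelo-4.

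The HSCP-1 and Multi-Lin cells had low levels of Mpo and high levels of Srgn. The single HSCP-1 cell had Mpo at 3.84, Elane at 4.39 and Prtn3 at 7.37, with Ctsg, Ms4a3, Ctsc and Serpinb1a at 0, and Srgn at 12.37. The 2 Multi-Lin cells had Mpo at 5.40 and 9.93, Elane at 9.77 and 10.27, Prtn3 at 8.41 and 3.25, Ctsg at 0 and 8.25, and Srgn at 14.08 and 13.38. In these 3 cells Srgn was thus the highest member, and Mpo lay below each of the other 59 cells of the run, the lowest of which had 10.82. The summed level of basophil and mast cell markers was higher in the same 3 cells: 6 of 8 markers were detected, all but Prss34 and Cd200r3, and the sum was 0.427 to 3.02% of TPM, against 0 to 0.293% (7 of 8 detected in at least 1 cell, Cd200r3 at 0) in the other 59. Cpa3, a mast cell carboxypeptidase, reached 10.29 to 14.18 in the 3 cells, against a median of 0 and a maximum of 9.34 in the rest. Hdc, the histidine decarboxylase gene, went the other way, at 4.98 to 7.48 in the 3 cells against a median of 7.71 in the rest, and Mcpt8 was at 0 in 1 of the 3. The part of such cells in the low levels of the members was not tested.

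Between populations, most members averaged lower in CD11b+ GMP-P than in other GMP. Mpo spanned 2.004 to 15.36 with a median of 12.91 in CD11b+ GMP-P, against 3.84 to 14.93 with a median of 13.91 in other GMP. Elane spanned 2.50 to 15.03 with a median of 13.53, against 4.39 to 15.38 with a median of 14.19 in other GMP. The upper ends of these ranges were alike in both populations, and the CD11b+ GMP-P cells below the lowest value of other GMP were Myelo-4 cells for both genes. Prtn3 averaged 8.94 ± 3.87 in CD11b+ GMP-P (SD over 46 cells), against 11.68 ± 1.42 in other GMP (62 cells), and Ctsg 7.56 ± 4.73 against 11.05 ± 2.21. Serpinb1a, the inhibitor, went the other way, at 10.21 ± 2.32 in CD11b+ GMP-P and 8.76 ± 2.73 in other GMP.

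By the threshold used here, a difference in mean log2(TPM + 1) of at least 1, 7 of 8 members were lower in CD11b+ GMP-P than in other GMP, with differences of −3.49 for Ctsg, −2.74 for Prtn3, −2.22 for Ctsc and −2.19 for Mpo at the far end. The same held for 36.3% of the 9248 genes compared, which had been detected in 10% or more of one group or the other. The members' median difference was −2.11, beside −0.68 over all genes compared. The count was 0 for the log2 ratio of mean TPM, on which Mpo averaged 10993 TPM in CD11b+ GMP-P against 15034 TPM in other GMP, and 3 where cells with fewer than 2000 genes were left out. Markers of other states moved with the same comparison. Secondary granule genes were higher in CD11b+ GMP-P in 8 of 8, beside 2.74% of all genes compared, with a median difference of 8.29. Monocyte markers were lower in 7 of 8, beside the 36.3% given above. Their summed level had a median of 0.00242% (0 to 0.322, all 8 detected in some cell) against 0.118% (0.000234 to 0.355) in other GMP. The part of both kinds of marker in the members' differences was not tested. Against late July GMP, whose prefix can be read as the same day, 3 of 8 members were higher in CD11b+ GMP-P (Srgn by 1.38, Elane by 1.32 and Mpo by 1.12), beside 12.7% of 8037 genes. The count was 6 for medians and 6 with cells of at least 2000 genes. Of the 13 late July GMP cells 7 are Myelo-2 and 3 Myelo-4, and secondary granule genes summed to a median of 5.67% in CD11b+ GMP-P against 24.1% in late July GMP, whose part in these differences was not tested. All 8 members overlapped between populations in both comparisons.

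Within the Mono state the core members differed less between the populations than they did over all states. Mono has 6 cells in CD11b+ GMP-P and 32 in other GMP. Mpo averaged 14.50 ± 0.52 in CD11b+ GMP-P against 13.56 ± 0.83 in other GMP (SD over cells), Elane 14.28 ± 0.58 against 13.90 ± 0.71, and Prtn3 11.73 ± 0.51 against 11.97 ± 0.45. Only Ctsc (7.37 against 5.23) and Serpinb1a (10.33 against 8.67) differed by at least 1, both higher in CD11b+ GMP-P, so 2 of 8 members were higher, beside 17.5% of 9655 genes. None was lower. The median difference was 0.84 for the members and −0.08 for all genes compared, and Elane lay above Mpo in 1 of the 6 Mono cells of CD11b+ GMP-P against 25 of the 32 of other GMP. In Myelo-2, with 11 cells of CD11b+ GMP-P and 7 of late July GMP, Mpo and Elane each differed by −0.03 (Elane by 1.10 on the log2 ratio of mean TPM) and 1 of 8 members was lower by at least 1 (Ctsg, 3.68 in CD11b+ GMP-P against 5.76 in late July GMP), beside 23.1% of 7607 genes. That count was 0 with cells of at least 2000 genes and 2 for medians.

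The core members were abundant in both the granulocytic and the monocytic states of other GMP. In the 9 Gran-1 cells Mpo spanned 13.53 to 14.93 with a median of 14.53, and in the 32 Mono cells 10.82 to 14.65 with a median of 13.80. The 2 ranges overlapped, and the lower tail belonged to Mono. Elane had a median of 14.72 in Gran-1 against 14.01 in Mono, and Ctsg 11.58 against 11.41. Prtn3 was nearly level, at 12.17 ± 0.53 in Gran-1 and 11.97 ± 0.45 in Mono (SD over cells). The members with a difference of at least 1 were Serpinb1a (10.59 in Gran-1 against 8.67 in Mono), Srgn (12.23 against 10.76) and Ms4a3 (11.78 against 10.70), 3 of 8 higher in Gran-1 beside 16.5% of 10243 genes, with none lower. By the log2 ratio of mean TPM 1 of 8 was higher. Monocyte markers divided the same cells far more, with 7 of 8 lower in Gran-1, beside 7.62% of all genes compared. Their median difference was −3.996. The states were named on these same cells, so this larger split describes the annotation.

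The remaining states of other GMP lay close to these. In MP, with 11 cells, Mpo averaged 14.08 ± 0.77 and Elane 14.55 ± 0.67, and in cMoP, with 5 cells, Mpo had 12.30, 13.13, 13.69, 13.71 and 13.94. In the order of means for Mpo, 13.35 in cMoP, 13.56 in Mono, 14.08 in MP and 14.39 in Gran-1, no neighbours differed by more than the larger of their SDs over cells. Serpinb1a ranged more widely in cMoP, at 0, 5.27, 8.52, 9.13 and 9.85. The single MDP cell had Elane at 14.33, Mpo at 12.61 and Serpinb1a at 1.05.

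Among the 5 granulocytic and Myelo states with several cells in CD11b+ GMP-P, the core members stood high in Gran-1 and Gran-2, lower in Myelo-1 and lowest in Myelo-4. Mpo averaged 13.10, 14.19, 11.84, 8.80 and 5.21 in Gran-1, Gran-2, Myelo-1, Myelo-2 and Myelo-4, with 3, 13, 5, 11 and 7 cells. Elane followed with 13.26, 14.43, 12.95, 9.72 and 6.70. Prtn3 and Ctsg, the other granule proteases, ended lower still, at 2.87 and 1.51 in Myelo-4. As summed TPM of Mpo, Elane, Prtn3 and Ctsg, the share of a cell's transcripts had a median of 4.45% in Gran-2 (3.14 to 7.37), 1.89% in Myelo-1 (0.305 to 3.95), 0.131% in Myelo-2 (0.0390 to 4.37) and 0.0299% in Myelo-4 (0.00339 to 0.0846). The 8 secondary granule genes (Ltf, Camp, Ngp, Lcn2, Chil3, Fcnb, Mmp8 and Cd177) ran the other way, with medians of 2.86% in Gran-2, 17.9% in Myelo-2 and 24.5% in Myelo-4. The single Myelo-3 cell of the run, with 967 genes detected, stood outside this order: it had Mpo at 12.92, Elane at 11.82, Prtn3 at 3.03 and Ctsg at 0, a core share of 1.14% and a secondary granule share of 20.6%. TPM are shares of a cell's total, so genes that take up a large share lower all others; with each cell scaled to its upper quartile instead, the Mpo difference between Myelo-2 and Gran-2 was −5.48, beside −5.39 as deposited.

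**Figure D2:**
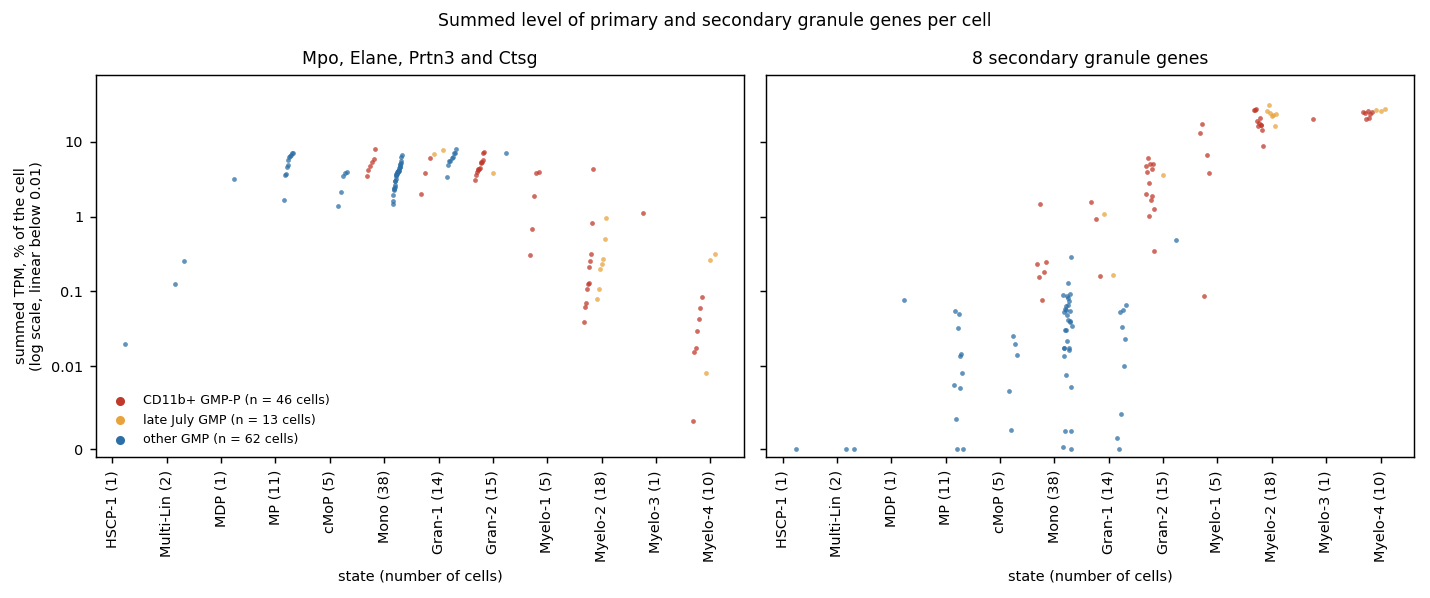
Summed TPM per cell as a percentage of the cell's total, on a log scale that is linear below 0.01, by state. The left panel sums Mpo, Elane, Prtn3 and Ctsg and the right panel 8 secondary granule genes; points are cells coloured by run. The left panel drops in Myelo-2 and Myelo-4, where the right panel lies between 8.93 and 31.2%.

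Myelo-1 varied widely in Mpo and Elane. Its 5 cells had Mpo at 9.55, 9.58, 12.37, 13.72 and 13.96, and Elane at 10.25, 12.53, 13.24, 14.29 and 14.46. For Mpo, 2 of the 5 lay within the Gran-2 range of 12.91 to 15.30, and 3 lay below it. In Myelo-1 against Gran-2, 7 of 8 members were lower by at least 1 (Ctsc by 3.31, Mpo by 2.35 and Prtn3 by 2.05 at the far end, Ms4a3 the exception at −0.92), beside 36.1% of 8591 genes. The members' median was −1.96, beside −0.59 over all genes compared.

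Myelo-2 differed from Gran-2 by more. Mpo spanned 4.94 to 13.34 with a median of 8.80 in Myelo-2, against 12.91 to 15.30 with a median of 14.18 in Gran-2. Elane spanned 6.63 to 14.84 with a median of 9.44 in Myelo-2, against 13.81 to 14.98 with a median of 14.56 in Gran-2. In both genes 1 Myelo-2 cell, with Mpo at 13.34, Elane at 14.84, Prtn3 at 11.96 and Ctsg at 0, reached into the Gran-2 range, and every other Myelo-2 cell lay below it. That cell carried 4.37% of its TPM in the 4 core members, whereas the next Myelo-2 cell carried 0.818%. Prtn3 spanned 1.28 to 11.96 with a median of 8.39, against 10.57 to 12.99 with a median of 11.69 in Gran-2, and 2 Myelo-2 cells reached that range. Ctsg, the gene of cathepsin G, spanned 0 to 11.09 with a median of 1.58, against 9.39 to 12.72 with a median of 10.94 in Gran-2, and 10 of the 11 Myelo-2 cells lay below the Gran-2 range.

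The differences between Myelo-2 and Gran-2 were −7.35 for Ctsg, −5.39 for Mpo, −4.71 for Elane and −4.31 for Prtn3, and 7 of 8 members were lower by at least 1, beside 43.4% of 7887 genes. The members' median was −4.25, beside −0.83 over all genes compared. On the log2 ratio of mean TPM, which weighs the cell with high levels more, the values were −3.41 for Ctsg, −3.75 for Mpo, −2.72 for Elane and −2.46 for Prtn3. Fewer genes were detected in Myelo-2 (median 2261) than in Gran-2 (median 3760) of this run, and with cells of at least 2000 genes only the count was also 7 and Mpo differed by −4.95. Markers of monocytes had summed medians near 0 in both states, but not every cell was near 0. The median was 0.00143% in Myelo-2 (0 to 0.0488, 4 of 8 detected, with Ly86, Csf1r, Ms4a6c and Cx3cr1 in no cell). In Gran-2 it was 0.000219% (0 to 0.165, 8 of 8 detected).

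**Figure D3:**
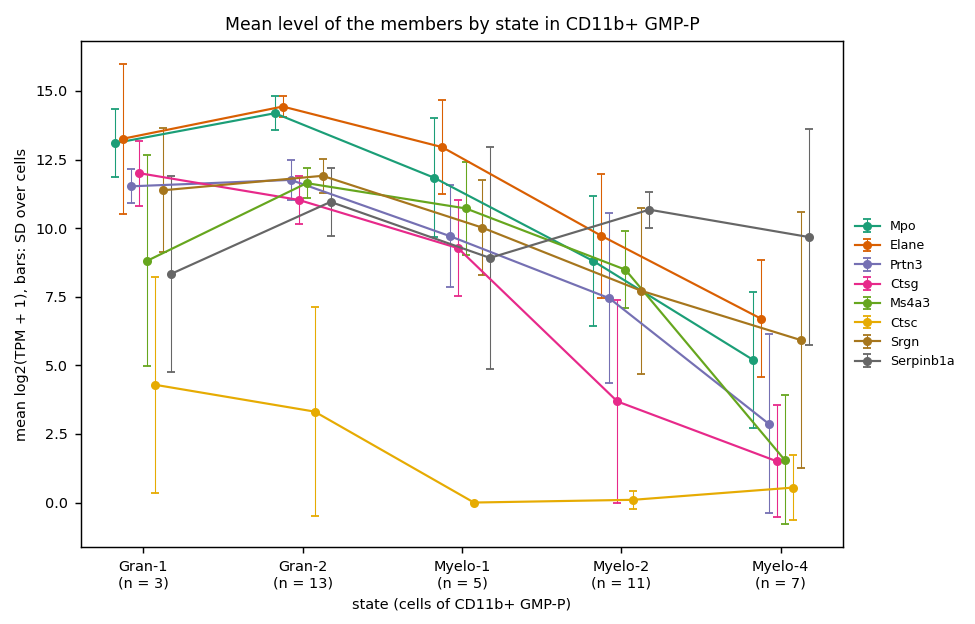
Mean log2(TPM + 1) of each member, with bars of 1 SD over cells, in 5 states of CD11b+ GMP-P. Mpo, Elane, Prtn3, Ctsg and Ms4a3 fan out downwards after Gran-2, Ctsc is at 0 in all Myelo-1 cells, and Serpinb1a has means of 10.67 in Myelo-2 and 9.68 in Myelo-4.

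Myelo-4 and Myelo-2 were set against each other over the cells of CD11b+ GMP-P and late July GMP pooled, 10 and 18 cells. The 2 populations were not alike in this. The summed core share had a median of 0.0299% in Myelo-4 against 0.131% in Myelo-2 of CD11b+ GMP-P. In late July GMP it was 0.263% (3 cells) against 0.236% (7 cells). The 3 Myelo-4 cells of late July GMP had Mpo at 5.26, 9.77 and 10.81, against a mean of 8.83 in its Myelo-2 cells. The pooled values follow. Mpo spanned 2.004 to 10.81 with a median of 6.21 in Myelo-4, against 4.94 to 13.34 with a median of 8.61 in Myelo-2. Prtn3 spanned 0.56 to 8.94 with a median of 3.08 in Myelo-4, against 1.28 to 11.96 with a median of 8.31 in Myelo-2. The ranges overlapped for all 8 members. Ms4a3 had the widest difference, 2.67 ± 3.05 in Myelo-4 against 8.64 ± 1.86 in Myelo-2 (SD over cells). In all 6 of 8 members were lower by at least 1 in Myelo-4, beside 25.2% of 7772 genes, with a median of −2.35 for the members and −0.43 for all genes compared. Fewer genes were detected in Myelo-4, with a median of 1685.5 (1304 to 2133) against 2448.5 (1509 to 3659) in Myelo-2, and the part of that in the difference was not tested. The exceptions were Ctsc, close to 0 in both states, and Serpinb1a, with a median of 10.84 in each.

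Shares of cells with a member showed how far detection reached. In Myelo-4 of CD11b+ GMP-P, Mpo and Elane were detected in all 7 cells, Prtn3 in 71.4% (exact 95% binomial interval 29.04 to 96.3), and Ctsg and Ms4a3 each in 42.9% (9.90 to 81.6). Ctsg was detected in 63.6% (30.8 to 89.1) of the Myelo-2 cells of CD11b+ GMP-P. These intervals cover counting error only.

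Ms4a3 had the smallest difference between Myelo-2 and Gran-2 among the 7 lower members, −3.15, and the largest between Myelo-4 and Myelo-2. It had a median of 11.66 in Gran-2 of CD11b+ GMP-P, 8.50 in Myelo-2 and 0.60 in Myelo-4. The Myelo-2 cells (5.64 to 10.77) and the Gran-2 cells (10.77 to 12.35) met at their ends without crossing. How many of all genes compared lay apart in this way is not given here. In Myelo-4 6 of the 7 cells were at 2.01 or below and 1 cell was at 6.53.

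Ctsc, which encodes the activator of the proteases, was detected in fewer cells than any other member. It was present in 36.96% (23.2 to 52.5) of CD11b+ GMP-P cells against 74.2% (61.5 to 84.5) of other GMP cells. Fewer genes of any kind were detected per cell in CD11b+ GMP-P (median 2870) than in other GMP (4521). The part of that in the Ctsc shares was not tested. Among states Ctsc was detected in 78.1% (60.03 to 90.7) of the Mono cells of other GMP and in 53.8% (25.1 to 80.8) of the Gran-2 cells of CD11b+ GMP-P. It was detected in 0 of 5 Myelo-1 cells, with an upper exact limit of 52.2%. In Myelo-2 of CD11b+ GMP-P it was detected in 1 of 11 cells, at 1.10. In all, Ctsc was not detected in 54 cells, all of which had Mpo, among them 6 of the 13 Gran-2 cells of CD11b+ GMP-P. Some of the 54 had a Ctsc value above 0 but below the detection limit.

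Srgn, the storage proteoglycan gene, had a median of 12.03 in Gran-2 of CD11b+ GMP-P (10.94 to 12.80), 8.82 in Myelo-2 (0.58 to 10.87) and 7.15 in Myelo-4 (0.65 to 10.98). No Myelo-2 cell reached the Gran-2 range. As for Ms4a3, no share of all genes with such a gap is given, so the gap describes Srgn alone. In Myelo-4 the cells divided into values at or below 1.72 and values at or above 7.15. Across all states its highest values were those of the 2 Multi-Lin cells.

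Serpinb1a, the protease inhibitor gene, did not follow its targets from Gran-2 to Myelo-2 and Myelo-4 of CD11b+ GMP-P. Its median was 11.32 in Gran-2 of CD11b+ GMP-P (7.26 to 11.85), 10.65 in Myelo-2 (9.61 to 11.56) and 10.91 in Myelo-4 (1.01 to 12.27). The Myelo-2 cells lay within the Gran-2 range, and the difference between the means was −0.28. In Myelo-4, 6 of 7 cells had at least 9.46 and 1 had 1.01, the same cell that held the highest Ms4a3 value of that state. Among states with several cells its lowest mean was 6.55, in cMoP of other GMP. In Myelo-1 of CD11b+ GMP-P Serpinb1a averaged 8.92 ± 4.05 (SD over 5 cells), below Gran-2 by 2.04, with 1 cell at 1.96. Over the cells of other GMP it had a Pearson r of 0.46 with the mean log2 level of the 4 core members (Spearman 0.63). Over those of CD11b+ GMP-P that r was 0.04 (Spearman 0.05).

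Elane and Mpo made up most of the core. Elane took a median of 47.5% and Mpo 35.4% of the summed TPM of the 4 core members in CD11b+ GMP-P, against 45.8% and 35.9% in other GMP. Prtn3 took 6.57% in CD11b+ GMP-P against 10.2% in other GMP, and Ctsg 3.51% against 7.53%. Elane exceeded Mpo in 30 of 46 CD11b+ GMP-P cells and in 51 of 62 other GMP cells. The excess of Elane over Mpo had a median of 0.33 on the log2 scale in CD11b+ GMP-P and 0.37 in other GMP. In Myelo-4 of CD11b+ GMP-P it was 2.14, with a range of −2.23 to 5.25 over 7 cells. One Gran-1 cell of CD11b+ GMP-P departed from the pattern, with Ctsg at 13.32 making 50.9% of its core, above Prtn3 at 12.19, Mpo at 12.01 and Elane at 10.12.

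Genes that serve the same granules were read in the same comparison, Myelo-2 against Gran-2 in CD11b+ GMP-P. Of 16 further primary granule and lysosomal genes, 15 were kept for comparison, 9 lower and 2 higher by at least 1, with a median of −1.31 beside −0.83 over all genes. The 2 higher genes encode lysozyme, Lyz2 (13.64 in Myelo-2 against 8.46 in Gran-2) and Lyz1 (10.48 against 5.82). Prss57, a serine protease of primary granules, was lower (2.12 against 6.58).

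Genes for the folding and heme supply of the peroxidase were lower in 8 of 11, higher in 0, with a median of −1.98. Calnexin and calreticulin, the chaperones that bind the myeloperoxidase precursor, had Canx at 5.14 in Myelo-2 against 9.79 in Gran-2 and Calr at 5.50 against 8.83. Among 12 genes of granule sorting and congenital neutropenia, 10 were kept, 5 lower and 1 higher, with a median of −1.29. Ap3s1, a subunit of the adaptor complex that sorts granule proteins, had 5.41 in Myelo-2 against 8.50 in Gran-2, and Hax1, in which human mutations cause neutropenia, 0.76 against 2.99. These shares of lower genes stand beside the 43.4% of all genes given above.

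Of 10 regulators of primary granule genes, 9 were kept, 4 lower and 2 higher, with a median of −0.66. Myb, a transcription factor of progenitors, averaged 2.87 in Myelo-2 against 6.94 in Gran-2, and Gfi1 4.61 against 7.14. Cebpd was higher, at 3.05 against 1.74. Among 12 protease inhibitor and activation genes, 7 were kept, 3 higher and 2 lower, with a median of 0.60. Cst7, the gene of cystatin F, a cathepsin C inhibitor, was at 1.70 in Myelo-2 against 7.78 in Gran-2, and Stfa1, a stefin gene, at 2.40 against 0. Secondary granule genes were higher in 7 of 8, with a median of 3.80, led by Ltf at 12.97 in Myelo-2 against 3.88 in Gran-2. Of all genes compared, 5.29% were higher by at least 1.

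In Gran-1 against Mono of other GMP, the regulators differed most in Gfi1, at 8.38 in Gran-1 against 4.04 in Mono, with 2 of 9 kept regulators higher and 1 lower. Of the 15 kept further granule genes 6 were higher and 3 lower. Over the 10243 genes compared, 16.5% were higher and 7.62% lower by at least 1. Cd63, a tetraspanin of primary granule membranes, was at 11.11 in Gran-1 against 5.82 in Mono, and Lyz2 at 3.69 against 7.25. The core members had differences of 0.20 to 0.90 between these states. Cd63 and Lyz2 were named for the size of their differences here, so they are no measure for the core.

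Between cells, the core members varied together in CD11b+ GMP-P. The Pearson r of log2(TPM + 1) over its 46 cells was 0.88 for Mpo and Elane, 0.81 for Mpo and Prtn3, 0.81 for Elane and Prtn3 and 0.76 for Mpo and Ctsg. Over the 62 cells of other GMP it was 0.91, 0.63, 0.66 and 0.93 for the same pairs. Serpinb1a stood apart in CD11b+ GMP-P, with r of 0.08 with Mpo, 0.20 with Elane and −0.09 with Prtn3. Cells of a run share the library preparation and differ in the number of genes detected, which correlated over all cells with Mpo at r = 0.72, with Ctsg at 0.73 and with Serpinb1a at 0.08, and the part of that number in the correlations was not tested.

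Among the 21 pairs of members other than Ctsc, 15 had r of at least 0.5 in CD11b+ GMP-P, beside 5.5% of all pairs of genes detected in at least 80% of its cells. In other GMP 12 of 21 did, beside 0.805% of such pairs. In other GMP those values rested in part on the HSCP-1 and Multi-Lin cells. Without these 3 cells, a choice made after the data were seen, 9 of 21 pairs reached 0.5, beside 0.473%, and the median r of the 6 core pairs was 0.320, against 0.754 with them. Mpo and Elane then correlated at 0.73, Mpo and Ctsg at 0.63, Mpo and Prtn3 at 0.01, and Srgn and Ctsg at 0.73, against 0.04 with the 3 cells, in which Srgn was high and Ctsg low.

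**Figure D4:**
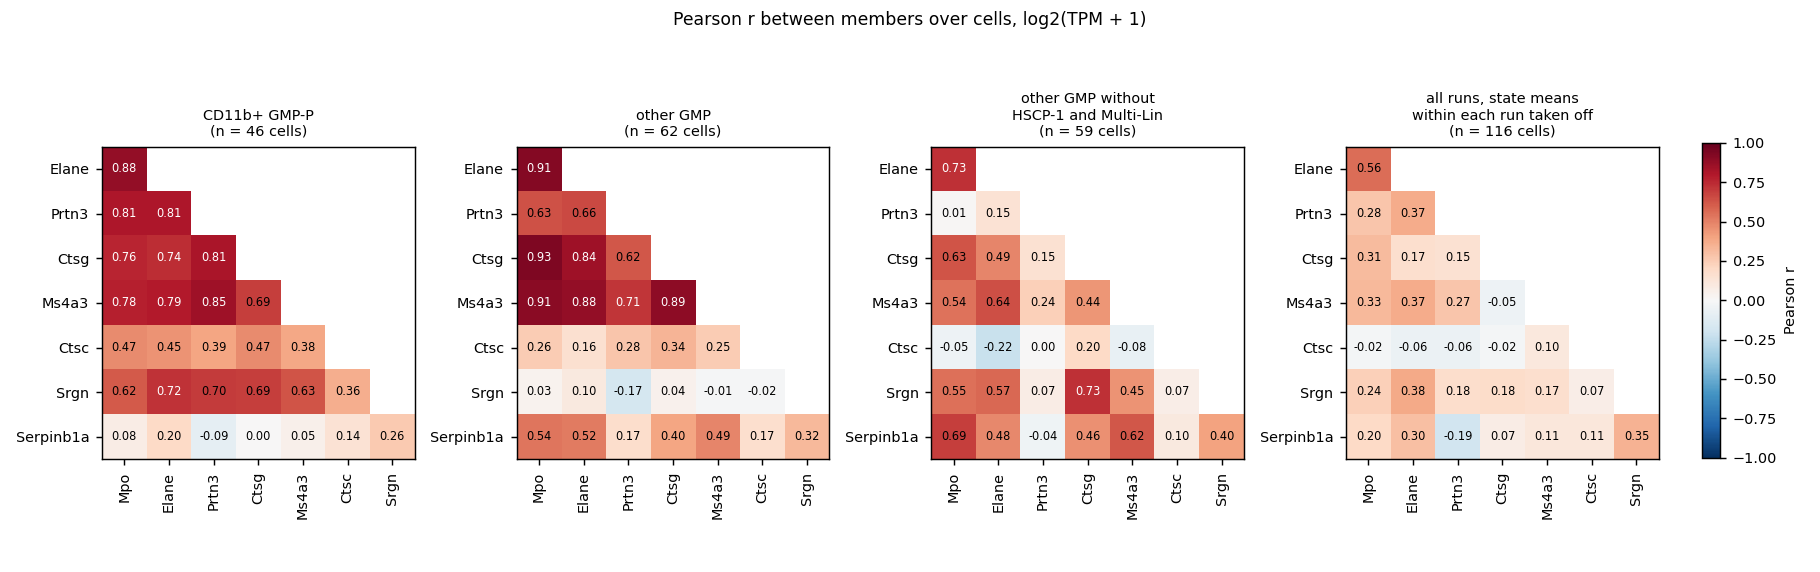
Pearson r between each pair of members over cells, on log2(TPM + 1), from −1 (blue) to 1 (red), in CD11b+ GMP-P, in other GMP, in other GMP without the HSCP-1 and Multi-Lin cells, and in all runs after the mean of each state within each run was taken off. Mpo and Elane reach 0.88, 0.91, 0.73 and 0.56 in the 4 panels, and most other pairs are paler in the last.

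Inside the Mono state Prtn3 did not vary with the other members. Over the 32 Mono cells of other GMP, 5 of its 6 correlations with members other than Ctsc were below 0, with a median of −0.11, although its level there varied little (SD 0.45). Over the 13 Gran-2 cells of CD11b+ GMP-P the median r of the 6 core pairs was 0.104, and over the 11 Myelo-2 cells 0.371. The 11 MP cells of other GMP had higher values, with a core median of 0.486. Their median over the 21 pairs without Ctsc was 0.696, beside 0.480 in other GMP without the HSCP-1 and Multi-Lin cells. With the mean of each state within each run taken off in 116 cells, 1 of 21 pairs had r of at least 0.5, Mpo and Elane at 0.56, beside 0.133% of gene pairs. Elane and Prtn3, the adjacent genes, were at 0.37 there, and the median of the 28 member pairs was 0.176. The median of the 6 core pairs was 0.296 there, beside 0.810 over all cells as deposited.

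**Figure D5:**
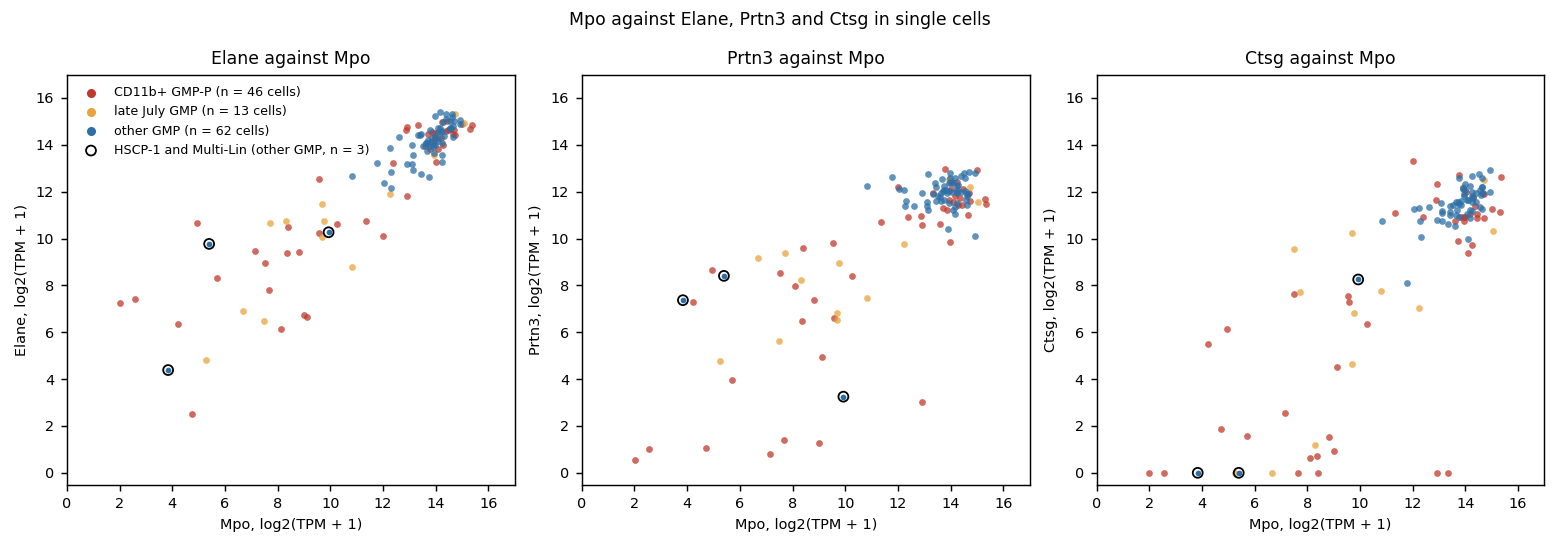
Elane, Prtn3 and Ctsg against Mpo in all cells, both axes in log2(TPM + 1), coloured by run, with rings around the 3 HSCP-1 and Multi-Lin cells. Most cells form a dense cloud at high levels of both genes, and the cells below it, mainly Myelo cells and the 3 ringed ones, spread widely in Prtn3 and Ctsg at a given Mpo.

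The genes most like the core were found by the Pearson r of each gene with the mean log2 level of Mpo, Elane, Prtn3 and Ctsg. In other GMP, over 62 cells and 7357 genes detected in at least 20% of them, they were Ly6c2 (0.84), Etfb (0.84), Mif (0.83), Nme1 (0.78) and Gnb2l1 (0.77). Their Spearman rank correlations were far lower, for example 0.09 for Ly6c2 and 0.13 for Mif. In CD11b+ GMP-P, over 46 cells and 5197 genes, they included Npm1 (0.87), Ddost (0.84), Ptma (0.83) and Gstm1 (0.83), and the rank correlations were 0.80 for Npm1 and 0.83 for Ptma. With state means within each run taken off, the Pearson r was 0.38 for Npm1, 0.51 for Ddost, 0.61 for Ptma and 0.42 for Gstm1, and between −0.17 (Nme1) and 0.29 (Ly6c2) for the genes of other GMP. No gene was among the highest 5 in both runs.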

How the data were processed

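Single bone marrow cells were profiled by RNA sequencing after capture on a Fluidigm C1 chip, with SMARTer cDNA and Nextera XT libraries, per the labels' protocols. Bowtie2, RSEM and mm9 stand in the submitters' processing notes; neither versions nor settings are given in the sources used here. The authors deposited log2 values, read here as log2(TPM + 1), since 2 to the power of the value, minus 1, summed to 999517 to 1001450 in each cell. Of all values 81.7% were 0. A second table deposited by the authors gives the 12 state names; how they were assigned is not stated there. Depth per cell is unknown. No cell was filtered and no doublet caller was run.

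Means, medians, ranges and SD were taken over cells with Python 3.11.15, numpy 2.4.6, pandas 2.3.3 and scipy 1.17.1, and figures drawn with matplotlib 3.10.9; the difference and correlation steps were tested on simulated data. Cells are not replicates and no animal is named, so no p-value was computed. Contrasts kept genes with a TPM of at least 1 in 10% or more of one group or the other. Genes named are the members, the 5 genes most like the core in each run (1 is not reported here), and up to 3 genes per list by size of difference. Single cells were picked out after their values were seen. The members and lists were chosen with earlier results of these data known. Alternatives were another pseudocount (10), the log2 ratio of mean TPM, medians, upper-quartile scaling, no gene filter, cells with at least 2000 genes, other detection limits, rank correlation and removal of state means. RefSeq promoters matched 7 of 8 members by symbol.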

Additional observations from a re-analysis of the deposited data

Results flagged for a closer look

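Within groups of 4 to 10 cells of one state and run, 47 sets of member values were examined for a cell whose distance from its nearest neighbour took up most of the range (Dixon's criterion at 95%), and 5 had one. For independent sets of normally distributed values, chance alone would mark about 1 set in 20. Many values here lie at or near 0 and the members share the same cells, so that rate does not apply. In Myelo-4 of CD11b+ GMP-P, 1 of 7 cells had Ms4a3 at 6.53, above 2.01 in the next. The same cell had the lowest Serpinb1a of that state, 1.01, below 9.46 in the next. Another of these 7 cells had Ctsc at 3.22, above 0.37 in the next. In Myelo-2 of late July GMP, 1 of 7 cells had Ctsc at 3.998, above 1.01. In cMoP of other GMP, 1 of 5 cells had Srgn at 6.98, below 11.12 in the next.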

How the results depend on the processing

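No paired analysis was possible because no replicate number or animal in the labels ties a cell of one group to a cell of another, and no test was made. No difference of at least 1 on the log2 scale changed sign under an alternative run. Of the main values recomputed, 80 were within their limits and 19 moved. The number of members lower in CD11b+ GMP-P than in other GMP was 0 for the log2 ratio of mean TPM, 3 for medians and 3 with cells of at least 2000 genes. The number higher in CD11b+ GMP-P than in late July GMP was 6 for medians and 6 with cells of at least 2000 genes. The number higher in Gran-1 than in Mono was 1 for the ratio of mean TPM, and the number lower in Myelo-2 of CD11b+ GMP-P than of late July GMP was 2 for medians and 0 with cells of at least 2000 genes. Ctsc was above 0 in 93.8% of Mono cells of other GMP. Prtn3 was above 0 in 100% of Myelo-4 cells of CD11b+ GMP-P, and at a TPM of at least 10 in 28.6%. With state means taken off, the median r was 0.176 for 28 pairs and 0.296 for the core pairs over all cells, 0.179 for the core pairs in other GMP, and 0.154 for 28 pairs and 0.366 for the core pairs in CD11b+ GMP-P. For the core pairs in other GMP the Spearman median was 0.488, and it was 0.320 for Pearson r without the HSCP-1 and Multi-Lin cells. The summed share of the members in Gran-2 of CD11b+ GMP-P was 3.65% without Elane. Myelo-4 was not set against Myelo-2 with cells of at least 2000 genes, a number that few Myelo-4 cells reached. The causes were not tested. Unknown depth limits every value near 0.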
